A study of Rattus norvegicus with 24 samples.

Results

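Neuropeptide transcripts were described in the rat brain at 3 months after traumatic brain injury (TBI). The group consisted of 10 genes given by name, Vip, Cartpt, Pmch, Gal, Sst, Npy, Penk, Tac1, Cck and Adcyap1, of which 9 were found by their symbol among the 26641 named loci of 42334 loci in all. Penk was not analysed here. The set was chosen by name with fold changes of TBI against sham rats in these same libraries in view, and the falls of Vip in the thalamus and of Cartpt in the cortex were already known as large. Vip in the thalamus and Cartpt in both regions are therefore described without a test, as are the differences between the 2 regions in their response. For the other members, counts of changes with TBI are set beside the share of all loci as a description only, since the choice could have raised them.

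Adult male Sprague-Dawley rats received a lateral fluid-percussion injury, in which a fluid pressure pulse strikes the exposed dura on 1 side of the brain, or a sham operation. Both regions came from the same 6 TBI and 6 sham-operated rats, giving 24 libraries of polyadenylated RNA: perilesional cortex of TBI rats, the same cortical site of sham rats, ipsilateral thalamus of TBI rats and ipsilateral thalamus of sham rats. The study used magnetic resonance imaging to find injured rats with a chronic inflammatory rim around the lesion, so the TBI rats may not stand for all injured rats. Each region was cut by hand from a single coronal slice, and its RNA mixes neurons, glia and vessels. In such tissue, fewer cells of a type and less RNA per cell cannot be told apart.

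Neuropeptides are made as precursor proteins, cut by prohormone convertases, amidated, stored in dense-core granules and released to act mostly on G-protein-coupled receptors. In the cortex, Vip, Sst, Npy and Cck mark classes of inhibitory interneurons, and Cck is also made by many excitatory neurons. Galanin and pituitary adenylate cyclase-activating polypeptide (the product of Adcyap1) are known as peptides whose synthesis changes in injured nerve cells. Pmch is the precursor of melanin-concentrating hormone, whose cell bodies lie in the hypothalamus.

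Several of these genes are textbook targets of cAMP signalling, so their promoters were searched for the cAMP response element. RefSeq promoters (build GRCr8, 250 bases before to 50 bases after the annotated start) were given for Vip, Cartpt, Gal, Sst, Npy, Tac1 and Adcyap1. The full palindrome TGACGTCA was found in the windows of Cartpt and Sst, and in 1.83% of all 33469 promoters in the table. The shorter motif TGACG, searched on both strands and contained in the full one, was in the windows of Vip, Gal and Tac1 as well and in 21.2% of all promoters. Neither was found in the windows of Npy and Adcyap1, which says only that these letters are not there. The matches are printed here because they let the shared letters be compared, with the motif in capitals. A match is a description of the letters and no evidence of binding.
Cartpt: ggcgggcatTGACGTCAaacggcagc
Sst: ctccttggcTGACGTCAgagagagag
Vip: tcaccactgTGACGtctttcgag
Gal: ctgagcgggTGACGcggcagctc
Tac1: ctaaaattgCGTCAtttcgaacc

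The printed stretch of Cartpt was at chr2:32991361-32991386 on the minus strand, that of Sst at chr11:90461539-90461564 on the plus strand and that of Vip at chr1:44470374-44470396 on the plus strand. The stretch of Gal was at chr1:210084622-210084644 on the minus strand and that of Tac1 at chr4:36645368-36645390 on the plus strand. In Tac1 the motif lay on the opposite strand.

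Libraries held between 30568927 and 54608922 fragments. Values are normalized counts, that is, fragments divided by a size factor of the library, and they can be compared between libraries for 1 gene but not between genes. The 14 thalamus identity genes summed to between 95436 and 165010 in thalamus libraries and between 7495 and 8821 in cortex libraries, as the labels have it. The 14 microglia markers summed to between 17261 and 18314 normalized counts in sham cortex and between 24489 and 27629 in TBI cortex. Their sum was between 18429 and 23930 in sham thalamus and between 37371 and 48120 in TBI thalamus. The 15 general neuron markers summed to between 537674 and 574783 in sham cortex and between 405834 and 502821 in TBI cortex, and 11 of them fell, against 14.9% of all loci tested. In the thalamus their sum was between 442658 and 527852 in sham rats and between 297468 and 376448 in TBI rats, and 13 fell, against 20.9% of all loci tested. The ranges of these sums did not overlap between TBI and sham libraries in either region, and their part in the results that follow was not tested. The TBI cortex library of rat 24 had a striatum and amygdala marker sum of 26390 against at most 16743 in the other TBI cortex libraries. The TBI libraries of rat 45 had a choroid plexus marker sum of 287068 in thalamus and 35468 in cortex, against at most 2226 and 1649 in the other TBI libraries, and sham thalamus reached 115491.

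**Figure D1:**
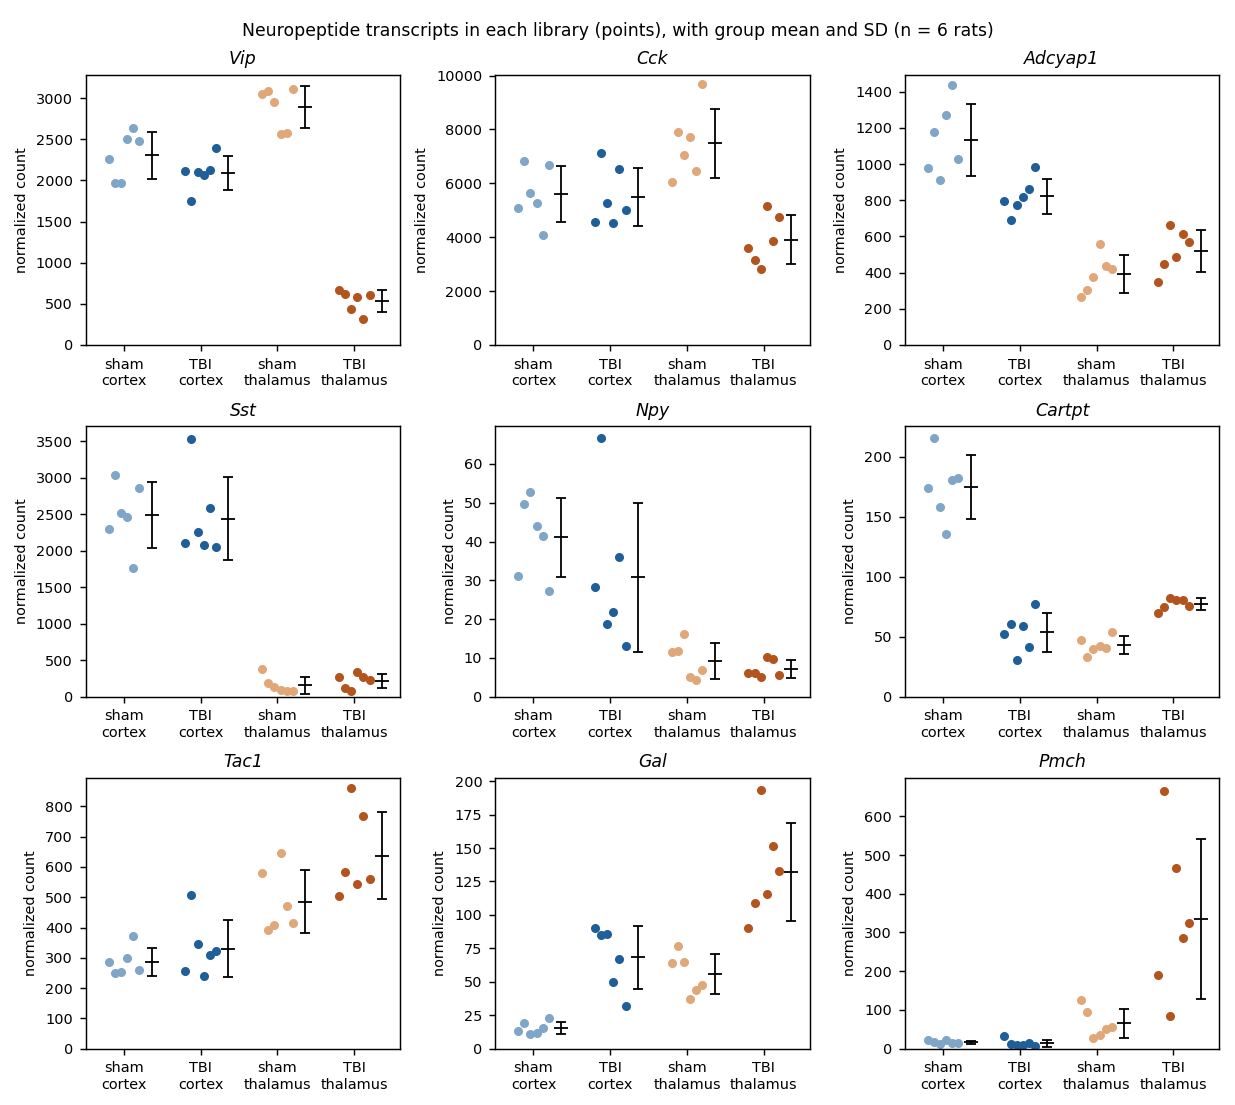
Normalized count (linear axis from 0) of each of the 9 neuropeptide transcripts in every library, by group; points are libraries and the black marks are the mean and standard deviation (n = 6 rats). Vip of TBI thalamus lies between 317 and 672, under every other library, whereas Gal of TBI rats lies above every sham library of its region.

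In sham-operated rats, the question was where each transcript is normally higher. Leaving out Vip and Cartpt, 7 of 7 neuropeptide transcripts differed between thalamus and cortex, where 62.2% of all 15582 loci tested differed (33.9% were higher and 28.3% lower in thalamus). Pmch, Gal, Tac1 and Cck were higher in thalamus, and Sst, Npy and Adcyap1 were higher in cortex. Sst, the precursor of somatostatin, had 1764, 2490 and 3040 normalized counts in sham cortex (lowest, median and highest) and 78.8, 115 and 374 in sham thalamus. No thalamus library came near a cortex library (log2 difference -4.18, standard error 0.31, limma adjusted p = 7.68e-09). Npy, the precursor of neuropeptide Y, had 27.2, 42.7 and 52.8 in sham cortex and 4.2, 9.19 and 16.3 in sham thalamus, with the groups apart (-2.12, standard error 0.30, limma adjusted p = 1.35e-05). Adcyap1 was lower in thalamus by a log2 difference of -1.55 (standard error 0.16, limma adjusted p = 3.8e-07).

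Pmch had 13.2, 15.4 and 22.1 normalized counts in sham cortex and 27.5, 53.9 and 127 in sham thalamus, and every thalamus library exceeded every cortex library (log2 difference 1.73, standard error 0.32, limma adjusted p = 0.000181). Gal, the precursor of galanin, was higher in thalamus by 1.78 on the log2 scale (standard error 0.22, limma adjusted p = 3.87e-06), again without overlap. Tac1, the precursor of substance P and neurokinin A, was higher by 0.74 (standard error 0.13, limma adjusted p = 0.000155). Cck, the precursor of cholecystokinin, was higher by 0.42 (standard error 0.13, limma adjusted p = 0.0085), with overlapping groups. For Vip the log2 difference was 0.33 (standard error 0.08) and for Cartpt -1.997 (standard error 0.14). Of these 9, all but Vip and Cck had sham groups that did not overlap, against 43.1% of all loci tested (23.9% with thalamus higher and 19.2% with thalamus lower).

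In the perilesional cortex, leaving out Cartpt, 2 of 8 neuropeptide transcripts differed between TBI and sham rats, against 29.2% of all 15493 loci tested (14.3% higher and 14.9% lower). Gal rose, Adcyap1 fell, and the other 6 did not pass the test. With Cartpt the median log2 fold change of the 9 was -0.13, against -0.01 over all loci tested.

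Gal had 11.3, 14.3 and 22.7 normalized counts in sham cortex and 32.1, 76.1 and 90.5 in TBI cortex. Every injured cortex lay above every sham cortex, and the TBI library nearest to the sham group was that of rat 63. The mean went from 15.5 ± 4.52 to 68.3 ± 23.4 (SD, n = 6), a log2 fold change of 2.03 (standard error 0.26, limma adjusted p = 7.49e-05). The counts behind these values were low, between 10 and 22 fragments in sham libraries and between 27 and 112 in TBI libraries. No overlap in the upward direction was seen for 7.02% of all loci tested.

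Cartpt, the precursor of cocaine- and amphetamine-regulated transcript peptides, had 136, 178 and 216 normalized counts in sham cortex and 30.6, 55.9 and 77.4 in TBI cortex. All injured cortices were below all sham cortices, with the lowest value in rat 45 and the highest in rat 63. The mean was 175 ± 26.8 in sham and 53.7 ± 16.2 in TBI rats (SD, n = 6) and the log2 fold change was -1.73, with a standard error of 0.19. No overlap in the downward direction was seen for 5.45% of all loci tested. After injury its cortical range overlapped that of sham thalamus, where it had between 32.9 and 54.4.

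Adcyap1 had 914, 1103 and 1437 normalized counts in sham cortex and 693, 808 and 985 in TBI cortex. Of the 6 TBI libraries, 5 were below every sham library, and that of rat 63 was within the sham range. The log2 fold change was -0.45 (standard error 0.11, limma adjusted p = 0.00562), and it stayed past the threshold whichever library was left out.

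Of the interneuron peptides of the cortex, Vip, Sst and Cck gave no such difference. Vip had 1966, 2371 and 2633 normalized counts in sham cortex and 1750, 2112 and 2393 in TBI cortex, and the groups overlapped (log2 fold change -0.13, 95% interval -0.32 to 0.05, limma adjusted p = 0.254). Sst had a median of 2490 in sham and 2183 in TBI cortex (-0.04, 95% interval -0.34 to 0.26, limma adjusted p = 0.864). Cck had a median of 5467 in sham and 5152 in TBI cortex (-0.03, 95% interval -0.31 to 0.26, limma adjusted p = 0.902).

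Npy had 27.2, 42.7 and 52.8 normalized counts in sham cortex and 13.1, 25.1 and 66.5 in TBI cortex, and 3 TBI libraries were below every sham library while that of rat 24 was above them all (log2 fold change -0.56, standard error 0.31, limma adjusted p = 0.194). The same library was the highest of the TBI cortices for Sst, Tac1 and Cck. Without it, Npy had a log2 fold change of -0.81 (standard error 0.25, limma adjusted p = 0.028). Tac1 had a median of 274 in sham and 316 in TBI cortex (0.17, 95% interval -0.16 to 0.50, limma adjusted p = 0.428). Pmch had few fragments in both cortical groups, with 12 to 20 fragments in sham and 5 to 39 in TBI libraries (-0.42, 95% interval -1.09 to 0.26, limma adjusted p = 0.344).

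In the ipsilateral thalamus, leaving out Vip and Cartpt, 3 of the 6 neuropeptide transcripts tested differed, against 35.4% of all 15564 loci tested (14.5% higher and 20.9% lower). Pmch and Gal rose, Cck fell, and Sst, Tac1 and Adcyap1 did not pass the test. Vip was lower and Cartpt higher in every TBI library than in every sham library, which is given as a description. Npy was under the filter, which required a mean of at least 10 normalized counts. With Vip and Cartpt the median log2 fold change of the 8 was 0.48, against -0.02 over all loci tested.

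Vip, the precursor of vasoactive intestinal peptide, had 2561, 3006 and 3111 normalized counts in sham thalamus and 317, 595 and 672 in TBI thalamus. No TBI library came near the lowest sham library; the highest was that of rat 22 and the lowest that of rat 56. The mean was 2892 ± 254 in sham and 538 ± 134 in TBI rats (SD, n = 6), a log2 fold change of -2.46 (standard error 0.15). No overlap was seen for 18.2% of all loci tested, and for 10.7% in the downward direction.

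Cck had 6061, 7381 and 9696 normalized counts in sham thalamus and 2832, 3735 and 5170 in TBI thalamus. All injured thalami were below all sham thalami, with rat 45 lowest and rat 52 highest. The mean was 7481 ± 1295 in sham and 3896 ± 909 in TBI rats (SD, n = 6), a log2 fold change of -0.96 (standard error 0.14, limma adjusted p = 0.000184).

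Pmch had 27.5, 53.9 and 127 normalized counts in sham thalamus and 83.3, 304 and 665 in TBI thalamus. Of the TBI libraries, 5 exceeded every sham library, and that of rat 45 was within the sham range. The mean was 65.5 ± 37.9 in sham and 336 ± 207 in TBI rats (SD, n = 6), a log2 fold change of 2.26 (standard error 0.46, limma adjusted p = 0.00167). The spread between injured rats was the widest of these 5 transcripts, with a coefficient of variation of 61.5%, against 6.05% for Cartpt.

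The interval given for the Pmch locus, chr7:28764493-28825206, also holds Parpbp, which had a mean of 9.36 in sham and 12.3 in TBI thalamus. Hcrt, the precursor of the hypothalamic orexins, had a median of 17 in sham and 25.1 in TBI thalamus (log2 fold change 0.53, limma adjusted p = 0.415). The 17 hypothalamus markers together summed to between 5115 and 7535 in sham thalamus and between 3135 and 5683 in TBI thalamus. That difference was carried by Trh, and the other 16 summed to between 2785 and 3455 in sham and between 2676 and 3810 in TBI thalamus. Most of this smaller sum came from Lhx9 (mean 1554 in sham and 1785 in TBI thalamus) and Prlhr (1317 and 1018). Lhx9 is also on the list of thalamus identity genes, so the sum says little about the rarer hypothalamic transcripts. Of the 9 tested, 5 had log2 fold changes above 0, among them Oxt (oxytocin, mean 79.5 in sham and 174 in TBI rats, limma adjusted p = 0.206) and Avp (vasopressin, mean 27.7 and 56.2, limma adjusted p = 0.268). Trh alone passed the test. The part of neighbouring hypothalamic tissue in the Pmch values was not tested.

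Gal had 37.3, 55.7 and 76.4 normalized counts in sham thalamus and 90.3, 124 and 193 in TBI thalamus. The groups did not overlap, with rat 22 lowest and rat 45 highest among the injured (log2 fold change 1.23, standard error 0.21, limma adjusted p = 0.000423). Cartpt had 32.9, 41.8 and 54.4 in sham and 70, 78.2 and 82.3 in TBI thalamus, also without overlap, a log2 fold change of 0.84 (standard error 0.13). The injured thalami were closely grouped for Cartpt, with a mean of 77.4 ± 4.68 (SD, n = 6). No overlap in the upward direction was seen for 7.46% of all loci tested.

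Without the library of rat 45, Pmch, Gal and Cck still passed the test in thalamus, with log2 fold changes of 2.60, 1.11 and -0.87 and limma adjusted p-values of 0.000163, 0.000663 and 0.000244.

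Tac1 had 393, 444 and 646 normalized counts in sham and 504, 572 and 862 in TBI thalamus, with the TBI libraries on the high side of an overlapping range. Its log2 fold change of 0.39 (standard error 0.15) missed the threshold (limma adjusted p = 0.062) and passed it after scaling by trimmed means (0.44, limma adjusted p = 0.0395). Adcyap1 had 265, 398 and 557 in sham and 349, 529 and 660 in TBI thalamus (0.42, standard error 0.18, limma adjusted p = 0.0886). Sst had 78.8, 115 and 374 in sham and 84.3, 249 and 337 in TBI thalamus, fully overlapping (0.54, 95% interval -0.33 to 1.41, limma adjusted p = 0.327). Without the sham library of rat 26, the highest, its log2 fold change was 0.84, still short of the threshold. The 9 markers of the habenula, a nucleus beside the thalamus, moved with Tac1 and Adcyap1 in some libraries. Their sum was highest in rat 38 among sham thalami (9185) and in rat 45 among TBI thalami (13142), which were also highest for both transcripts, and lowest among TBI thalami in rat 22 (5164), which was lowest for both. Gal and Cartpt were also highest in rat 45 and lowest in rat 22 among TBI thalami. Among sham thalami they went otherwise, with Gal lowest in rat 38 and Cartpt highest in rat 55. All 9 habenula markers had log2 fold changes above 0, between 0.17 and 0.79, and none passed the test. Their part in these values was not tested. Npy had between 4 and 13 fragments in sham and between 5 and 14 in TBI thalamus, and was not tested.

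**Figure D2:**
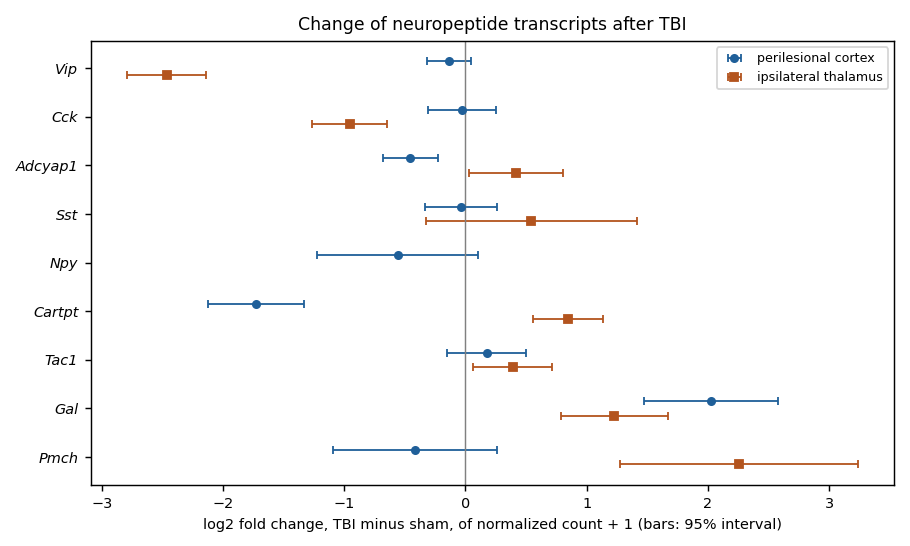
Log2 fold change of TBI against sham rats for each neuropeptide transcript (points, with 95% intervals from limma), in perilesional cortex (circles) and ipsilateral thalamus (squares); Npy was not tested in thalamus. Vip is at -0.13 in cortex and -2.46 in thalamus, Cartpt at -1.73 and 0.84, and Gal is above 0 in both.

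The response to injury was then compared between the regions by an interaction term (effect in thalamus minus effect in cortex). Leaving out Vip and Cartpt, it passed the threshold for 3 of 7 neuropeptide transcripts, against 7.26% of all 15678 loci tested (2.72% higher and 4.54% lower in thalamus relative to cortex). All 7 were chosen with fold changes of these libraries in view, so these shares do not test the set. As a description, the difference was -2.33 for Vip (standard error 0.18) and 2.57 for Cartpt (standard error 0.23). Pmch had an interaction of 2.68 (standard error 0.59, limma adjusted p = 0.00617). That of Cck was -0.93 (standard error 0.21, limma adjusted p = 0.008). Adcyap1 fell in cortex and did not pass the test in thalamus, and its interaction was 0.87 (standard error 0.22, limma adjusted p = 0.0174). For Gal the interaction was -0.80 (95% interval -1.51 to -0.09, limma adjusted p = 0.165), so its rises of 2.03 and 1.23 were not shown to differ. Those of Sst, Npy and Tac1 were 0.58, 0.31 and 0.22, with limma adjusted p-values of 0.494, 0.75 and 0.635.

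The order of the 4 groups differed from gene to gene. Vip went from sham thalamus through sham cortex and TBI cortex, each overlapping the next, to TBI thalamus, which stood apart. Cartpt was highest in sham cortex, apart from the other 3 groups, and lowest in sham thalamus. Gal and Pmch were highest in TBI thalamus, and in both sham thalamus exceeded sham cortex without overlap. Adcyap1 had both cortical groups above both thalamic groups, and no overlap was seen between TBI cortex and TBI thalamus. Sst separated by region, and within each region its groups overlapped.

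Other peptide precursors were described from a list of 39 loci found. In the cortex, 20 were tested, 4 rose and none fell, where 14.3% of all loci tested rose and 14.9% fell. The risers were Nmb (neuromedin B, log2 fold change 1.55), Npb (neuropeptide B, 0.76), Adm (adrenomedullin, 0.53) and Edn3 (endothelin 3, 0.30). The call of Npb was lost in 6 and that of Edn3 in 7 of 12 fits that each left out 1 library, and without the TBI cortex of rat 24 3 rose and 2 fell. In the thalamus, 21 were tested, none rose and 2 fell, Trh and Nmb, where 14.5% of all loci tested rose and 20.9% fell. At an unadjusted p under 0.05, 3 fell in cortex (Crh, Pdyn and Nppa) and 1 rose in thalamus (Edn3). By edgeR's quasi-likelihood test with trimmed-mean scaling, 0 fell in cortex and 1 rose in thalamus.

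Trh, the precursor of thyrotropin-releasing hormone, had 2330, 3186 and 4080 normalized counts in sham thalamus and 287, 1261 and 1873 in TBI thalamus. The groups did not overlap, and the lowest library was that of rat 45 (log2 fold change -1.50, standard error 0.35, limma adjusted p = 0.00454). In cortex Trh had a median of 9.94 in sham and 15.6 in TBI rats. Nmb had 16.1, 18.4 and 26.8 in sham cortex and 47.9, 62.5 and 72.1 in TBI cortex, with the groups far apart (1.55, standard error 0.17, limma adjusted p = 2.35e-05). In thalamus it had 29, 36.2 and 57.3 in sham and 18.8, 21.7 and 35.6 in TBI rats, with overlap (-0.65, standard error 0.21, limma adjusted p = 0.0266). That last call was lost in 4 of the 12 fits without 1 library. The interaction was -2.20 for Nmb (standard error 0.26, limma adjusted p = 1.18e-05) and -2.16 for Trh (standard error 0.55, limma adjusted p = 0.0174).

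**Figure D3:**
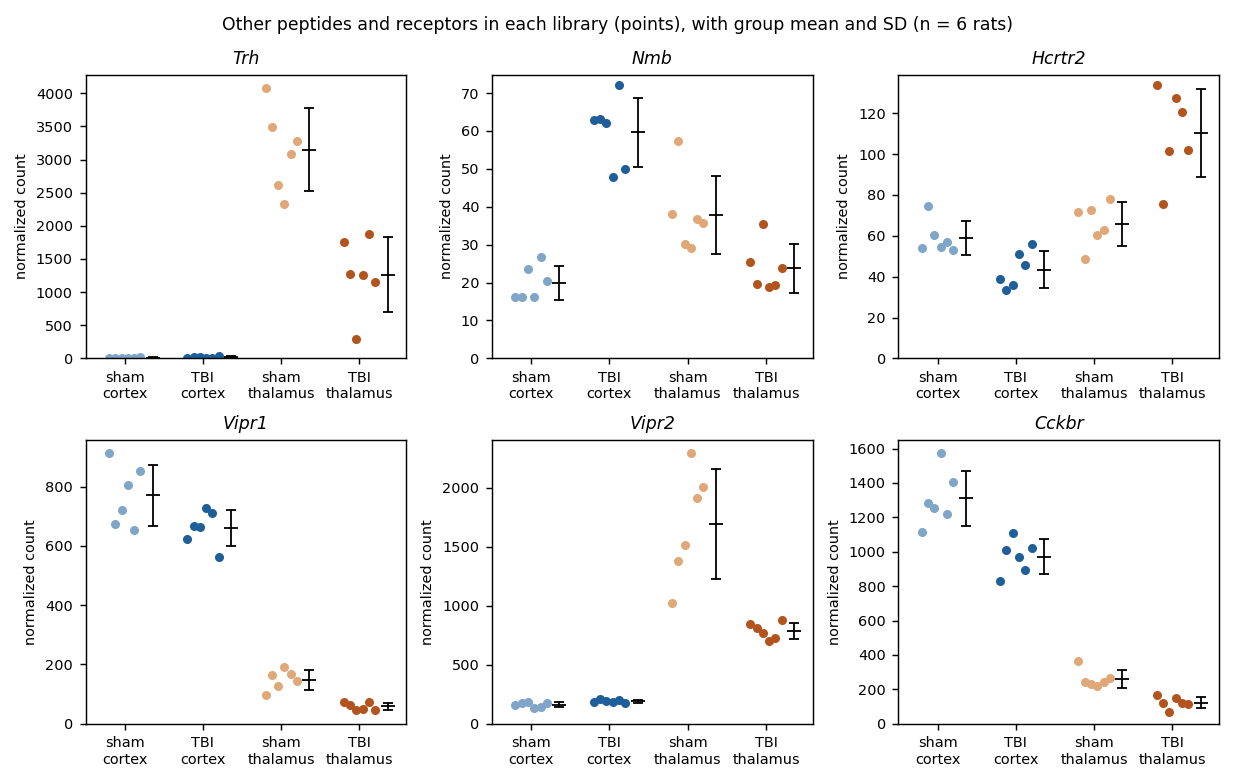
Normalized count (linear axis from 0) of the peptide precursors Trh and Nmb and the receptors Hcrtr2, Vipr1, Vipr2 and Cckbr in every library, by group; points are libraries and the black marks are the mean and standard deviation (n = 6 rats). Vipr2 of TBI thalamus lies between 700 and 881, under all sham thalamus libraries, and Nmb of TBI cortex lies above all sham cortex libraries.

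Of 54 peptide receptor loci, 43 were tested in each region. In cortex 5 rose and 11 fell, with a median log2 fold change of -0.03, where 14.3% of all loci tested rose and 14.9% fell. In thalamus 10 rose and 11 fell, with a median of 0.17, where 14.5% of all loci rose and 20.9% fell. The number of risers in thalamus depended on single libraries. Without the sham thalamus of rat 55, 5 rose and 10 fell, and without that of rat 32, 11 rose and 11 fell. The receptors of the peptides described above included several of the receptors that rose or fell.

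Both receptors shared by vasoactive intestinal peptide and the Adcyap1 product fell in thalamus. Vipr1 had 95.5, 154 and 191 normalized counts in sham thalamus and 45.4, 56.2 and 73 in TBI thalamus (log2 fold change -1.32, standard error 0.18, limma adjusted p = 9.33e-05). Vipr2 had 1021, 1715 and 2298 in sham and 700, 789 and 881 in TBI thalamus (-1.06, standard error 0.16, limma adjusted p = 0.000165). For both, all injured thalami were below all sham thalami. In cortex, Vipr1 had a log2 fold change of -0.22 and Vipr2 of 0.24, with limma adjusted p-values of 0.0769 and 0.0773. The interaction was -1.10 for Vipr1 (standard error 0.21, limma adjusted p = 0.00161) and -1.30 for Vipr2 (standard error 0.19, limma adjusted p = 0.000151). Adcyap1r1, the receptor that prefers the Adcyap1 product, rose by 0.17 in cortex and 0.19 in thalamus, and its call in thalamus was lost in 8 of 12 fits without 1 library.

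Cckbr, the main cholecystokinin receptor of the brain, fell in both regions. It had 1113, 1270 and 1576 normalized counts in sham cortex and 829, 990 and 1111 in TBI cortex, a log2 fold change of -0.43 (limma adjusted p = 0.00209, standard error 0.09). In thalamus it had 218, 241 and 367 in sham and 67.1, 120 and 164 in TBI rats, without overlap (-1.11, standard error 0.19, limma adjusted p = 0.000494). Mchr1, the receptor of the Pmch product, fell by 0.25 on the log2 scale in cortex (limma adjusted p = 0.0179) and by 0.32 in thalamus (limma adjusted p = 0.00781).

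Among somatostatin receptors, Sstr1, Sstr3 and Sstr4 fell in cortex, with log2 fold changes of -0.41, -0.56 and -0.29, and Sstr3 fell in thalamus (-0.61, limma adjusted p = 0.0137). Of the neuropeptide Y receptors, Npy1r fell (-0.35) and Npy2r rose (0.64) in thalamus. Galr1, a galanin receptor, had a mean of 164 ± 32.9 in sham and 214 ± 47.1 in TBI thalamus (0.37, limma adjusted p = 0.103).

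The cortical receptors with the largest rises among those past the threshold were Prlhr (prolactin-releasing peptide receptor, log2 fold change 0.74), Npr1 (natriuretic peptide receptor, 0.53) and Ntsr2 (neurotensin receptor, 0.42). The largest falls were Rxfp2 (a relaxin-family receptor, -1.67), Trhr2 (thyrotropin-releasing hormone receptor, -0.68) and Sstr3. In thalamus the largest rises were Mc3r (melanocortin receptor, 1.21), Hcrtr2 (orexin receptor, 0.73) and Npy2r, and the largest falls Vipr1, Rxfp2 (-1.24) and Cckbr. Of the receptors that passed the test in both regions, 3 rose in both, 7 fell in both and 1, Hcrtr2, fell in cortex and rose in thalamus. Hcrtr2 had a log2 fold change of -0.45 in cortex, a call lost in 9 of 12 fits without 1 library, and its interaction was 1.18 (standard error 0.22, limma adjusted p = 0.00147).

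**Figure D4:**
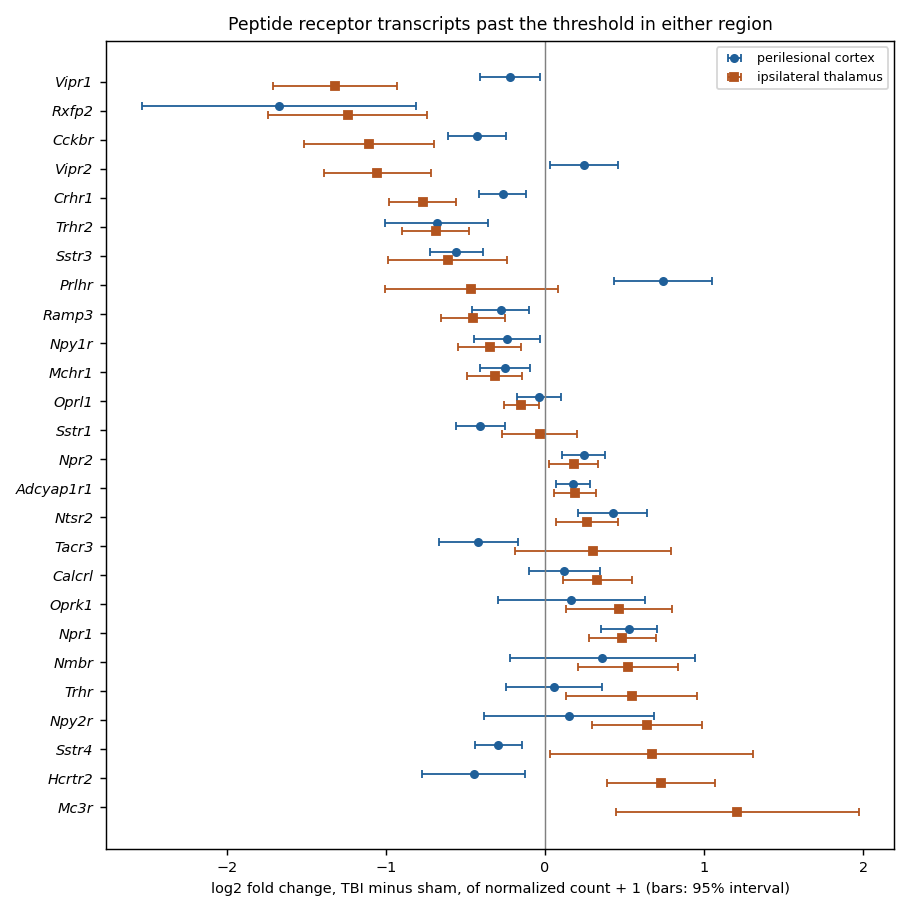
Log2 fold change of TBI against sham rats (points, with 95% intervals from limma) for the peptide receptor transcripts that passed the test in at least 1 region, in perilesional cortex (circles) and ipsilateral thalamus (squares), ordered by the value in thalamus. Vipr1, Cckbr and Vipr2 are at -1.32, -1.11 and -1.06 in thalamus, and Mc3r, at 1.21, was not tested in cortex.

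All 28 loci found from a list of peptide processing and dense-core granule genes were tested in each region. The list also held Dpp6 and Dpp10, for which neither role is claimed here. In cortex 2 rose and 12 fell, with a median log2 fold change of -0.17, beside 14.3% and 14.9% of all loci. In thalamus 4 rose and 10 fell (2 and 9 without the library of rat 45), with a median of -0.12, beside 14.5% and 20.9% of all loci. Pcsk2 (a prohormone convertase), Scg5 (its chaperone), Cadps (a priming factor of granule release), Ptprn2 (a granule membrane protein) and Dpp6 fell in both regions. Cadps fell by 0.28 in cortex and by 0.55 in thalamus on the log2 scale, with limma adjusted p-values of 0.000867 and 0.000138. Chga (chromogranin A, a granule core protein) had the largest fall in thalamus (-0.74).

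The convertases Pcsk1 and Pcsk5 and the release factor Cadps2 fell in cortex and rose in thalamus. Cadps2 had log2 fold changes of -0.55 (limma adjusted p = 6.85e-05) and 0.55 (limma adjusted p = 0.0486), and Pcsk1 of -0.50 (limma adjusted p = 0.0305) and 0.51 (limma adjusted p = 0.0109). The rise of Cadps2 in thalamus was lost in 9 of 12 fits without 1 library and its fall in cortex in none of 12. The fall of Pcsk1 in cortex was lost in 5 of 12, and the calls of Pcsk5 in 5 of 12 in cortex and 10 of 12 in thalamus. The interaction was 1.11 for Cadps2, 1.01 for Pcsk1 and 0.54 for Pcsk5, with limma adjusted p-values of 0.00438, 0.00765 and 0.0106. In thalamus, Cadps2 was highest in rats 38 (sham) and 45 (TBI) and lowest in rats 26 and 22, as was the habenula marker sum. Pcsk1 was also highest in rats 38 and 45, while Pcsk5 was highest in rats 34 (sham) and 22 (TBI). The part of habenula tissue in these values was not tested. Pcsk6 (log2 fold change 0.49) and Ece2, a peptide-cutting enzyme (0.24), rose in cortex.

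**Figure D5:**
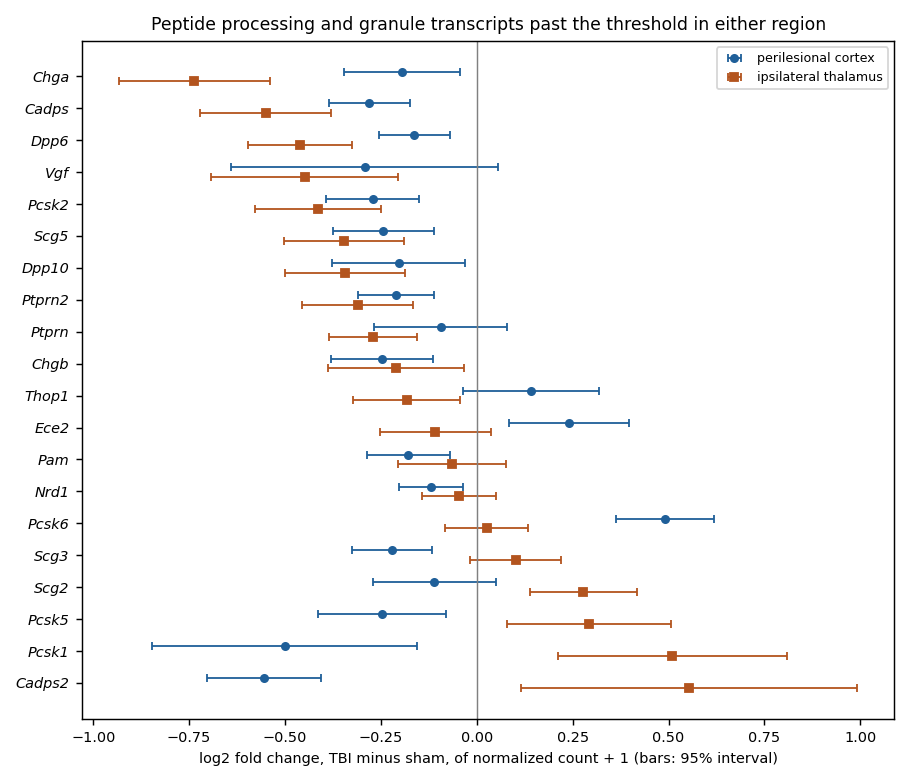
Log2 fold change of TBI against sham rats (points, with 95% intervals from limma) for the transcripts of the peptide processing and granule list that passed the test in at least 1 region, in perilesional cortex (circles) and ipsilateral thalamus (squares), ordered by the value in thalamus. Chga is at -0.74 in thalamus, and Cadps2 is at -0.55 in cortex and 0.55 in thalamus.

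Inhibitory neuron markers gave the setting for the interneuron peptides. Of 30 tested, 2 rose and 11 fell in cortex (all loci, 14.3% and 14.9%), and 3 rose and 11 fell in thalamus (all loci, 14.5% and 20.9%). In cortex the largest falls were Lamp5 (-0.69), Pvalb (parvalbumin, -0.51) and Gad1, which makes the transmitter GABA (-0.45), while Nos1 (0.50) and Igf1 (0.39) rose. The call of Igf1 was lost in 9 of 12 fits without 1 library in cortex and in 6 of 12 in thalamus. In thalamus the largest falls were Pvalb (-1.19), Lamp5 (-1.15) and Adarb2 (-0.93). Lamp5 in thalamus had between 74.2 and 310 normalized counts in sham rats, highest in rat 26, and between 40.3 and 108 in TBI rats. These ranges overlapped, and the call of Lamp5 in thalamus was lost in 3 of 12 fits without 1 library. Maf (0.60) and Igf1 (0.41) were among the markers that rose in thalamus, and both are also made by microglia or macrophages. The sum of the 30 markers was between 91746 and 95719 in sham cortex and between 74641 and 86767 in TBI cortex, where Vip, Sst and Cck did not pass the test.

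The transcripts most like each neuropeptide over the 24 libraries, by Pearson's r of log2 values, were given as a description, since the libraries share groups and rats. Adcyap1 was most like Cadps2 (r = 0.952), followed by the somatostatin receptor Sstr4 and by Wnt2. Gal was most like A2m (alpha-2-macroglobulin, r = 0.967), Entpd2 and Capg. Vip was most like Tiam1 (r = 0.927), Galntl6 and the synaptotagmin Syt2. Pmch was most like the ferritin heavy chain gene Fth1 (r = 0.930), Efhd1 and Folh1. Cpne5 (r = 0.979) and Thra (r = 0.976) were among those most like Sst. Cck was most like Rundc3a (r = 0.948), Mrpl4 and Rab11b, and Tac1 most like Dach1 (r = 0.896), Klhl13 and Mum1l1. Npy was most like Zfp316 (r = 0.930), Slc26a8 and Ccdc106. Cartpt had the least close neighbours, Apln (r = 0.802), Kctd8 and Kcnn2.

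The loci were given in the deposited gene table as chr1:43498383-43506462 for Vip, chr2:49285117-49287220 for Cartpt and chr1:225520965-225525829 for Gal. Sst was at chr11:80374261-80375447, Npy at chr4:144233779-144240952 and Tac1 at chr4:33499874-33507855. Cck was at chr8:129312697-129319370 and Adcyap1 at chr9:121154610-121162786. The labels' processing notes name Rnor_5.0, whereas the study's methods name RGSC3.4 as the genome and Rnor_5.0 as the annotation, so the build of these positions is uncertain, and the promoters above are of the later build GRCr8.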

How the data were processed

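The genes described and all gene lists were chosen with earlier results of these data known. Stranded libraries of polyadenylated RNA were sequenced on a NextSeq 500. Per the labels' processing notes the authors used TopHat2 2.0.11, Bowtie2 2.2.2 and Cufflinks 2.2.1 with build Rnor_5.0. The deposited signal per locus is a fragment count scaled by the authors with a size factor of its library, without correction for gene length. Dividing by the step between low values gave whole fragments for 100% of them (within 0.1).

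Values were analysed as log2(normalized count + 1) by limma 3.58.1 with a trended prior (R 4.3.3) on named loci averaging 10 or more in the libraries fitted, with Benjamini-Hochberg adjustment over all loci tested, two-sided, at 0.05. Fits were made for TBI against sham in each region, for their interaction over 24 libraries, and for thalamus against cortex in sham rats. Fold changes are on the log2(normalized count + 1) scale, which understates those of low genes. Intervals are 95% confidence intervals of a log2 fold change or interaction, from limma's moderated standard error, and not ranges of single rats. Alternatives were other scalings, pseudocounts of 0.1 and 5, no filter and a mean of at least 50, limma-voom, 1 fit over 24 libraries, the rat as a block, each library left out and, added after seeing the data, edgeR 4.0.16 on the recovered fragments.

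The 2 libraries of a rat came from the same animal. Their deviations from the group means had a median correlation of 0.187 (lowest 0.00393, highest 0.569), over 0.1 in 10 of 12 rats.

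The genes named were the 9 neuropeptide transcripts in every fit. From each list and region, the 3 loci with the largest rise and the 3 with the largest fall past the threshold were named, as were the 3 most like each neuropeptide (mean of at least 50), except for items that are not reported here. The receptors of the peptides described, and Trh, Nmb, Pcsk1, Pcsk5 and Cadps2 in full, were added after their values were seen.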

Additional observations from a re-analysis of the deposited data

Results flagged for a closer look

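Of 36 sets of 6 libraries (9 transcripts in 4 groups), 3 had a library far from the others by Dixon's test, which chance gives for about 1 in 20 sets. Pmch had 31.5 normalized counts in the TBI cortex of rat 22, the highest of its group. Sst had 3528 in the TBI cortex of rat 24, the library that also had the highest striatum and amygdala marker sum, and without it the log2 fold change of Sst in cortex was -0.15. In that library the striatal genes Rgs9 and Adora2a had 1031 and 1612 normalized counts, against at most 196 and 167 in the other TBI cortices. Sst had 374 in the sham thalamus of rat 26, the sham thalamus library with the highest striatum and amygdala marker sum (20396, against at most 16983 in the others) and the highest inhibitory neuron marker sum (92112, against at most 77766). There Adora2a had 903 and Rgs9 872 normalized counts, against at most 513 and 437 in the other sham thalami. Without it the log2 difference of Sst between sham thalamus and cortex was -4.48.

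The interaction term (response in thalamus minus response in cortex, log2, by limma) passed the threshold for Pmch, Cck and Adcyap1, at 2.68, -0.93 and 0.87. These genes were also chosen with fold changes of these libraries in view, so their calls are given as a description. The call of Pmch was lost under limma-voom. For Vip and Cartpt the same difference was -2.33 and 2.57, given without a test because their falls were known when they were chosen.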

How the results depend on the processing

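Counting Vip and Cartpt, the number of neuropeptide transcripts called was between 2 and 4 in cortex, 5 and 7 in thalamus, 4 and 6 for the interaction and 6 and 9 for the sham regions over all alternatives, and the 6 came from a filter at a mean of at least 50, which left fewer to test. The rat as a replicate block gave 5 and 9 and changed no call of these transcripts. The part of Vip and Cartpt in these counts is a description only, since their falls were known when they were chosen. In the main fits, leaving out Cartpt in cortex and both genes elsewhere, 2, 3, 3 and 7 were called in cortex, thalamus, the interaction and the sham regions. Of 3022 values recomputed for single genes, 2799 kept direction and side of the threshold. Cck in cortex turned to 0.0043 under upper quartile scaling. Leaving out 1 library, Sst in cortex ranged from -0.15 to 0.024 and Cck in cortex from -0.11 to 0.035. Calls of other neuropeptides in cortex went from 4 to 2 at a mean of at least 50 and to 2 with all 24 libraries in 1 fit, and ranged from 2 to 5 without 1 library (2 without rat 45 or rat 52 of the TBI group). In thalamus they went from 2 to 1 and 5 under those alternatives and ranged from 1 to 3 (1 without sham rat 32 or TBI rat 24). Inhibitory neuron markers called in cortex went from 13 to 8 with all 24 libraries in 1 fit. The causes were not tested. Adcyap1 in thalamus passed the threshold under upper quartile scaling (limma adjusted p = 0.0497) and in the joint fit (0.0397). Pmch lost its interaction call under limma-voom (2.71, adjusted p = 0.0977), and the interaction of Gal was called without the TBI cortex of rat 63 (-0.995, limma adjusted p = 0.0489). Over all loci, 59% of those called in thalamus were lower as deposited and 45.1% after trimmed-mean scaling. Low fragment numbers limit Npy in thalamus and Pmch in cortex.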

Other observations

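Genes of other marker lists also differed between TBI and sham rats in the thalamus. Of all loci tested there, 14.5% rose and 20.9% fell. Of 11 striatum and amygdala markers, none rose and 7 fell. Among them were the dopamine receptor Drd1, with a log2 fold change of -1.66 (mean 858 in sham and 281 in TBI rats), the adenosine receptor Adora2a (-0.89) and the phosphodiesterase Pde10a (-0.61). For these genes the highest sham thalamus library was that of rat 26. In sham rats 7 of the 11 were higher and 2 lower in thalamus than in cortex, where 33.9% and 28.3% of all loci tested were. The tissue they came from was not tested. Of the 14 thalamus identity genes, none rose and 8 fell, among them Prkcd, which marks relay neurons (-0.82), Lef1 (-0.54) and the vesicular glutamate transporter Slc17a6 (-0.21), while Gbx2 (0.15) and Lhx9 (0.20) did not pass the test. The astrocyte genes Gfap (2.26), Aqp4 (1.07) and Vim (1.28) rose, and the glutamate transporters Slc1a2 (-0.10) and Slc1a3 (0.07) did not pass the test.

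Hcrt was under the filter in cortex, where it had a mean of 0.787 in sham and 10.6 in TBI rats, with a median of 0.559 in sham and 10.8 in TBI libraries, and was not tested.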
